A study of Mus musculus with 40 samples.

Results

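The genes described here are 35 members of the p53 pathway: Trp53 itself, 3 genes that feed back on it, and 31 targets that act in the cell cycle, cell death, DNA repair, and stress and metabolism. They were taken by symbol from the gene-level count table of an RNA-seq experiment, which lists 53465 genes, of which 16921 had enough reads to be tested. All 35 members were found and all 35 were tested. The cells were mouse bladder urothelial cells grown as organoids, which are small epithelial structures cultured in a matrix. They carried a wild-type genotype (WT) or one that the labels give as a Kmt2c and Kmt2d double knockout (dKO). Those genes encode histone H3 lysine 4 methyltransferases. Each genotype was kept for 4 days with the solvent DMSO or with 1 µM MI-503, a small molecule that blocks the binding of menin to the MLL methyltransferases. This gave 4 groups of 2 libraries each. All groups shared a medium with EGF, Noggin and R-spondin, the kinase inhibitors Y-27632 and A83-01, and the antioxidant N-acetyl-L-cysteine. The labels do not say how the knockout was made, how many animals or clones stand behind a group, or whether the 2 libraries came from separate cultures. The p-values therefore measure only the spread between these libraries, which may be technical.

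p53 is a transcription factor that is held at a low level by the ubiquitin ligase Mdm2 and is stabilised when DNA is damaged, when oncogenes are active or when ribosome assembly fails. It binds DNA as a tetramer at pairs of short half-sites and turns on genes that stop the cell cycle, repair DNA or start apoptosis, among them Mdm2, which closes a negative feedback loop. In the urothelium p53 is best known as a tumour suppressor that is often mutated in invasive bladder cancer, and targets such as Cdkn1a also respond to many other transcription factors.

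Because the members are defined by p53, their promoters were searched for the letters it binds. RefSeq windows on GRCm38.p6, which run from 250 bases before to 50 bases after an annotated transcription start, were found for 27 of the 35 members (36 windows). The core pair CATGNNNNNNCATG, which is the central tetramer of both half-sites at the spacing of adjoining half-sites, was found in the window of 1 member, Cdkn1a. It was present in 2.78% of member windows and in 0.712% of all 32851 windows. The 250 bases before this start are shown because Cdkn1a is the classic p53 target and has the only such match among the members, with the core pair in capitals. The match begins 48 bases before this start, and a second annotated Cdkn1a start lies 2790 bases further on.
Cdkn1a, chr17:29090729-29090978, plus strand: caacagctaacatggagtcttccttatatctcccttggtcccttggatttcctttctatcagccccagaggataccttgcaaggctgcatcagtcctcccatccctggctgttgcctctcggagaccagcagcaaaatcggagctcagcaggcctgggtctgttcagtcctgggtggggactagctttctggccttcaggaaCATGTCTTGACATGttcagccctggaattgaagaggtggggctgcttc
The 10-base p53 half-site, searched by its consensus with no mismatch on both strands (the pattern is its own reverse complement), was found in 13 of 36 member windows (36.1%, 12 members) and in 8.36% of all windows. No member window held a full site of 2 such half-sites with at most 1 base between them, against 0.00913% of all windows (3 of 32851). This search also allowed no mismatch, so it cannot show whether full sites with a mismatch are present. The half-site matches of Trp53, of the 3 feedback genes, and of Polk and Bax are shown, the last pair as a repair gene that fell with MI-503 in WT and a death gene that rose. Each is printed 5′ to 3′ on the strand of its gene, with the half-site in capitals. The Polk window belongs to a start inside the annotated gene. Some Cdkn1a half-site letters overlap the core pair.
Trp53, chr11:69580264-69580313, plus strand: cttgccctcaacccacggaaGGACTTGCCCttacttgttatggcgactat
Mdm2, chr10:117710915-117710964, minus strand: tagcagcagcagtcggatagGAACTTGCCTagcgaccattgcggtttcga
Ccng1, chr11:40755442-40755491, minus strand: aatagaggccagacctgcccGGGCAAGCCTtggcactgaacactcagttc
Ppm1d, chr11:85311102-85311151, plus strand: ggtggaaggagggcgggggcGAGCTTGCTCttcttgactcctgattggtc
Polk, chr13:96519389-96519437, minus strand: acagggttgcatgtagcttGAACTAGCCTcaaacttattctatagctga
Bax, chr7:45467070-45467119, minus strand: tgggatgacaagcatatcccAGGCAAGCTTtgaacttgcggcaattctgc
The other members with a half-site in a window were Aen, Cdkn1a, Ei24, Gtse1, Rps27l and Sesn1. A match is a description of letters and not of binding.

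Library totals ran from 58113705 to 68571176 counts. Levels below are counts per 1e+06 counts of the library (CPM) after scaling by the trimmed mean of M values (TMM), and are compared within a gene, not between genes, since they are not divided by transcript length. Kmt2c averaged 110.5 CPM in WT and 53.8 CPM in labelled dKO libraries with DMSO (log2 fold change -1.04). Kmt2d averaged 91.0 and 122.3 CPM (log2 fold change 0.43), so its whole-gene RNA was not lower, and the genotype is called labelled dKO throughout. The 2 WT DMSO libraries stood apart from the other 6: 15 endoplasmic reticulum chaperone genes took 3.68% to 3.95% of their counts and 0.420% to 0.547% elsewhere. Comparisons of labelled dKO with WT in DMSO, of MI-503 with DMSO in WT, and the genotype by MI-503 interaction rest on those libraries. MI-503 against DMSO in labelled dKO, and labelled dKO against WT under MI-503, do not use them in the difference. The basal urothelial marker Krt5 was at 3817 to 11010 CPM, while umbrella cell markers were uneven: Upk2 stayed at or below 0.149 CPM, Upk1b was at 97.5 to 144 CPM, and Krt20 was at 0.260 to 0.518 CPM in WT and reached 11.3 CPM in labelled dKO (log2 fold change 5.07 in DMSO). The 15 urothelial markers summed to 7071 to 7507 CPM with DMSO and 10590 to 10960 with MI-503 in WT, and to 14640 to 15590 and 13440 to 14630 in labelled dKO. Of 6 fibroblast and 6 immune markers, 3 and 2 had no count in any library, and Ptprc, which marks blood cells, was at most 0.0293 CPM. Other markers were present and moved with the groups. The macrophage marker Cd68 rose with MI-503 (log2 fold change 3.22 in WT and 2.32 in labelled dKO, over a range of 13.1 to 166 CPM), as did Acta2 of smooth muscle (3.67 and 2.86, up to 41.98 CPM). The fibroblast marker Pdgfra was at 0.928 to 8.27 CPM, highest in labelled dKO with MI-503, and the neural marker Gap43 was at most 0.100 CPM in WT and at 14.18 to 16.09 CPM in labelled dKO. The part of these marker levels in the results below was not tested. In bulk RNA, fewer cells of a type and less RNA per cell cannot be told apart.

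Many p53 pathway members were at their highest in untreated WT organoids, and many were at their lowest in untreated labelled dKO organoids. In 20 of 35 members (57.1%) both WT DMSO libraries lay above the other 6 libraries, against 25.1% of all genes tested. In 19 of 35 (54.3%) both labelled dKO DMSO libraries lay below the other 6, against 14.9% of all genes. Both held for 13 members (37.1%), Cdkn1a, Mdm2 and Fas among them, against 2.99% of all genes. The TMM factors were 0.896 and 0.892 in the WT DMSO libraries and 1.007 to 1.062 in the others. The counts of 20 and 13 depend on that scaling and were not repeated by library size alone. The WT MI-503 libraries were lowest in 6 members (16.5% of all genes) and highest in Ddb2 alone (19.8%), and the labelled dKO MI-503 libraries were lowest in Bbc3, Plk3 and Rrm2b (3 members, 12.1% of all genes) and highest in 5 (13.8%). WT DMSO libraries were lowest in Fdxr, Sesn1 and Xpc (3 members, 22.2%), and labelled dKO DMSO libraries highest in Epha2 and Phlda3 (2 members, 11.4%).

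**Figure D1:**
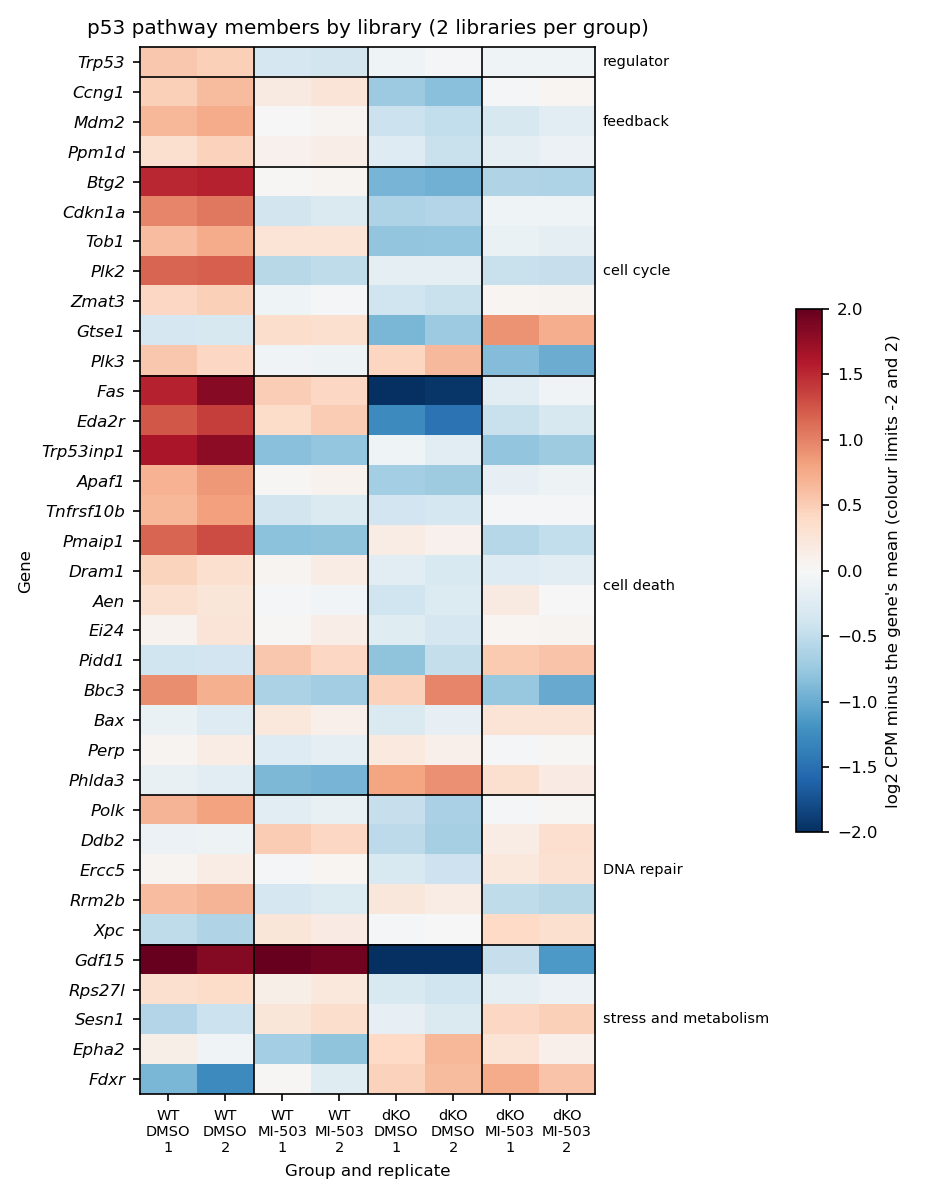
Each row is a member, grouped by role, and each column is a library. Colour is the log2 CPM minus the mean of that gene over the 8 libraries, clipped at -2 and 2. Red cells gather in the 2 WT DMSO columns and blue cells in the 2 labelled dKO DMSO columns, with Phlda3, Epha2 and Fdxr among the exceptions.

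In DMSO, 25 of 35 members were lower and 5 higher in labelled dKO than in WT, and 5 did not pass the test (edgeR quasi-likelihood F test, Benjamini-Hochberg adjusted p under 0.05 over all 16921 genes). Over all genes 35.8% were lower and 29.6% higher. The members' median log2 fold change was -0.64, and the median over all genes was -0.052. In all, 30 members passed, against 65.4% of all genes, and 16 of them differed at least 2-fold (45.7% of the members, against 22.6% of all genes). With MI-503 in WT, 25 members fell, 7 rose and 3 did not pass, against 33.7% lower and 35.2% higher over all genes, with medians of -0.51 for the members and 0.031 for all genes. The 32 that passed compare with 69.0% of all genes, and the 8 past 2-fold (22.9%) with 28.4%. These 2 comparisons share the WT DMSO libraries, so their values are given side by side and not counted against each other. With MI-503 in labelled dKO, 22 members rose, 9 fell and 4 did not pass, against 29.1% higher and 26.5% lower over all genes, with medians of 0.34 and 0.031. The 31 that passed compare with 55.6% of all genes, and the 6 past 2-fold (17.1%) with 14.1%. This comparison shares the labelled dKO DMSO libraries with that of the genotypes in DMSO. They enter the 2 with opposite sign, so lower values in the one and rises in the other are not separate results. Without the TMM scaling the median of all genes moved by 0.23 in the first comparison and 0.17 in the second. By library size alone the log2 differences of Aen, Rrm2b, Ei24, Ercc5, Gtse1 and Dram1 in DMSO were smaller (-0.39, -0.23, -0.22, -0.23, -0.26 and -0.41), as were those of Zmat3, Perp and Tob1 with MI-503 in WT (-0.33, -0.15 and -0.23).

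Trp53, which encodes p53 (chromosome 11, 69580348 to 69591873, GRCm38.p6), was at 294.4 and 282.3 CPM in WT with DMSO and at 160.0 and 156.5 CPM in WT with MI-503. It was at 191.7 and 196.5 CPM in labelled dKO with DMSO and at 191.9 and 190.2 CPM with MI-503. The WT DMSO libraries were the highest and the WT MI-503 libraries the lowest, and the 4 labelled dKO libraries lay between them and overlapped each other across treatments. Trp53 RNA was 1.49-fold lower in labelled dKO than in WT with DMSO (log2 fold change -0.57, SE 0.04, edgeR adjusted p = 6.01e-08, and -0.34 by library size alone). MI-503 lowered it 1.82-fold in WT (-0.87, SE 0.04, edgeR adjusted p = 5.90e-10). In labelled dKO the log2 fold change with MI-503 was -0.023 (SE 0.04, edgeR adjusted p = 0.687). The difference between these MI-503 responses was 0.84 (SE 0.06, edgeR adjusted p = 1.81e-07).

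All 3 feedback genes were lower in untreated labelled dKO than in WT, against 35.8% of all genes. Mdm2, the ubiquitin ligase that marks p53 for degradation (chromosome 10, 117688875 to 117710758), was at 249.7 and 264 CPM in WT with DMSO and 159 and 164 CPM with MI-503. In labelled dKO it was at 117 and 112 CPM with DMSO and at 126 and 134 CPM with MI-503, below every WT library. Mdm2 was thus 2.25-fold lower in labelled dKO in DMSO (log2 fold change -1.17, SE 0.05) and fell 1.59-fold with MI-503 in WT (-0.67, SE 0.05, edgeR adjusted p = 3.17e-08). It rose 1.14-fold in labelled dKO (0.19, SE 0.05, edgeR adjusted p = 0.00533), a call that was lost without the second labelled dKO MI-503 library (0.14, edgeR adjusted p = 0.0715). Ccng1, which encodes cyclin G1 and recruits a phosphatase to Mdm2, was at 1099 and 1227 CPM in WT with DMSO, 898 and 943 CPM in WT with MI-503, 476 and 444 CPM in labelled dKO with DMSO and 775 and 814 CPM in labelled dKO with MI-503. Its groups did not overlap, and it fell 1.26-fold in WT given MI-503 (-0.34 in log2, and -0.16 by library size alone) and rose 1.73-fold in labelled dKO. Ppm1d, the Wip1 phosphatase that switches off the damage response, was 1.67-fold lower in labelled dKO than in WT with DMSO. Its WT fall with MI-503 (log2 fold change -0.28, edgeR adjusted p = 0.00702) was lost when the second WT DMSO library was left out (-0.22, edgeR adjusted p = 0.0720), when the first WT MI-503 library was left out (-0.26, edgeR adjusted p = 0.0501) and by library size alone (-0.11, edgeR adjusted p = 0.249).

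Of 7 cell cycle members, 6 were lower in labelled dKO than in WT with DMSO, and 5 rose there with MI-503 (85.7% and 71.4%, against 35.8% and 29.1% of all genes). Both counts use the labelled dKO DMSO libraries, with opposite sign, so they are not separate results. Both include Gtse1, which restrains p53. Cdkn1a (chromosome 17, 29090979 to 29100722), whose product p21 blocks cyclin-dependent kinases, was at 769 and 814 CPM in WT with DMSO and 304 and 319 CPM with MI-503. In labelled dKO it was at 256 and 262 CPM with DMSO and 369.9 and 368 CPM with MI-503. WT DMSO libraries were the highest and labelled dKO DMSO libraries the lowest, and under MI-503 the order of the genotypes was turned round. Cdkn1a was 3.06-fold lower in labelled dKO in DMSO (log2 fold change -1.61, SE 0.05), fell 2.54-fold with MI-503 in WT (-1.34, SE 0.05, edgeR adjusted p = 1.62e-11) and rose 1.42-fold in labelled dKO (0.51, SE 0.05, edgeR adjusted p = 6.32e-07). Under MI-503 it was 1.18-fold higher in labelled dKO than in WT (0.24, SE 0.05, edgeR adjusted p = 5.99e-04).

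Btg2, an antiproliferative gene that works with the mRNA deadenylase complex, was at 348 and 355 CPM in WT with DMSO and 125.0 and 127 CPM with MI-503. In labelled dKO it was at 64.3 and 63.0 CPM with DMSO and 80.7 and 80.2 CPM with MI-503. No group overlapped another, and labelled dKO was below WT under both treatments. Its relative Tob1 was at 97.3 and 106.2 CPM, 76.7 and 77.0 CPM, 36.9 and 37.2 CPM, and 57.8 and 55.7 CPM in the same order of groups. Both genes had the order WT DMSO, WT MI-503, labelled dKO MI-503, labelled dKO DMSO from high to low, and the test of the genotype difference in the MI-503 response gave 1.82 for Btg2 (SE 0.06, edgeR adjusted p = 1.98e-10) and 1.02 for Tob1 (SE 0.08, edgeR adjusted p = 2.33e-07). Zmat3, an RNA-binding protein that controls splicing, fell 1.42-fold with MI-503 in WT and rose 1.39-fold in labelled dKO.

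The polo-like kinase genes Plk2 and Plk3, both stress kinases, ordered the groups differently. Plk2 was at 1736 and 1788 CPM in WT with DMSO, 532 and 547 CPM in WT with MI-503, 679 and 682 CPM in labelled dKO with DMSO, and 568 and 564 CPM in labelled dKO with MI-503. The WT DMSO libraries stood above all others, and MI-503 lowered Plk2 3.26-fold in WT and 1.20-fold in labelled dKO (interaction 1.44, SE 0.06, edgeR adjusted p = 1.81e-09). Plk3 was at 66.3 and 60.7 CPM in WT with DMSO and 43.1 and 42.1 CPM in WT with MI-503, and at 61.0 and 71.2 CPM in labelled dKO with DMSO and 25.01 and 22.8 CPM in labelled dKO with MI-503. Its DMSO libraries overlapped between genotypes (log2 fold change 0.058, edgeR adjusted p = 0.526, and 0.29 by library size alone, edgeR adjusted p = 0.0055). It fell 1.49-fold in WT and 2.77-fold in labelled dKO (interaction -0.89, SE 0.11, edgeR adjusted p = 1.64e-05). Gtse1, a microtubule-bound protein of G2 and S phase that restrains p53, was at 40.1 and 40.5 CPM in WT with DMSO and 64.6 and 63.1 CPM with MI-503. In labelled dKO it was at 26.9 and 30.5 CPM with DMSO and 94.7 and 83.7 CPM with MI-503, the highest of all libraries. It rose 1.59-fold in WT and 3.11-fold in labelled dKO (interaction 0.97, SE 0.10, edgeR adjusted p = 3.35e-06).

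**Figure D2:**
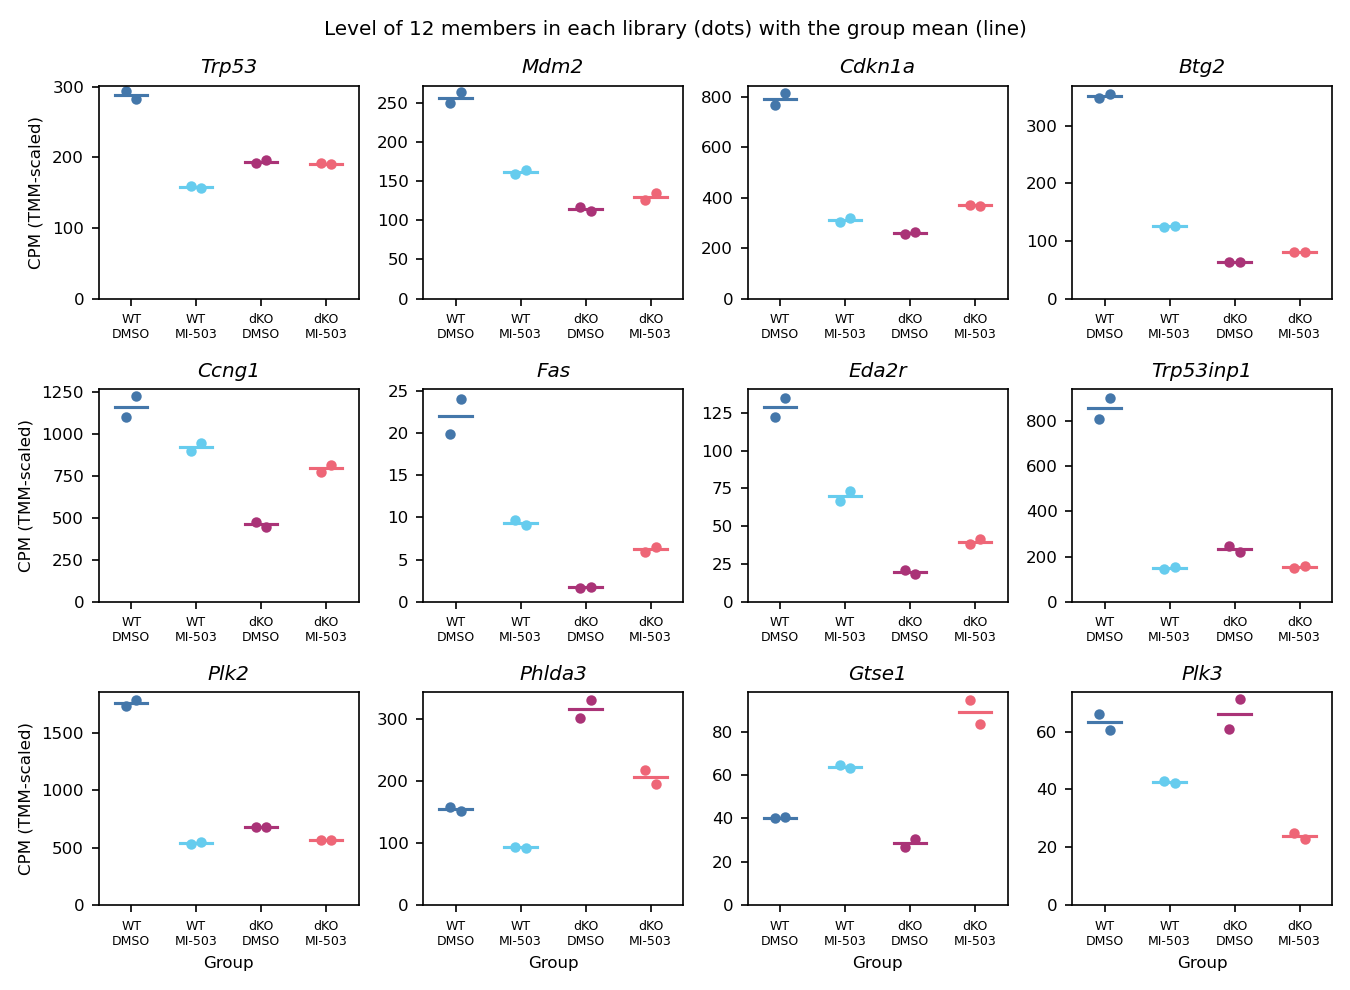
CPM on a linear axis from 0 for 12 members, with a dot for each library and a line for the mean of the 2 libraries in each group. Cdkn1a, Btg2, Ccng1, Fas, Eda2r and Mdm2 fall with MI-503 in WT and rise with it in labelled dKO, Plk2 and Trp53inp1 fall in both, Gtse1 rises in both, and Phlda3 is highest in labelled dKO with DMSO.

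Among members with a mean of at least 5 CPM, the death receptors Fas and Eda2r were the furthest below WT in untreated labelled dKO. Fas, the receptor for Fas ligand, was at 19.9 and 24.1 CPM in WT with DMSO and 9.67 and 9.12 CPM with MI-503. In labelled dKO it was at 1.67 and 1.77 CPM with DMSO and 5.89 and 6.52 CPM with MI-503. No group overlapped another. Fas was 12.8-fold lower in labelled dKO in DMSO (log2 fold change -3.68, SE 0.12, edgeR adjusted p = 1.24e-11) and 1.52-fold lower under MI-503, having fallen 2.34-fold in WT and risen 3.61-fold in labelled dKO. Eda2r, a receptor for the ectodysplasin isoform EDA-A2, was at 122 and 135 CPM in WT with DMSO and 66.5 and 73.2 CPM with MI-503, and at 21.3 and 18.6 CPM in labelled dKO with DMSO and 38.0 and 41.4 CPM with MI-503. It was 6.46-fold lower in labelled dKO in DMSO (-2.69, SE 0.08, edgeR adjusted p = 4.24e-12) and 1.76-fold lower under MI-503. Tnfrsf10b, the mouse TRAIL receptor, had group means that followed the same fall in WT (2.12-fold) and rise in labelled dKO (1.26-fold), and under MI-503 it was 1.22-fold higher in labelled dKO than in WT. Fas, Eda2r and Tnfrsf10b all passed the interaction test, with values of 3.08, 1.88 and 1.41. Over all genes, 46.8% passed it and 24.8% did so upward.

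Members of the mitochondrial death pathway went separate ways. Pmaip1, the BH3-only protein Noxa, was at 243 and 270.0 CPM in WT with DMSO, 61.6 and 62.6 CPM in WT with MI-503, 120 and 116 CPM in labelled dKO with DMSO, and 73.2 and 77.6 CPM in labelled dKO with MI-503. MI-503 lowered it 4.13-fold in WT (log2 fold change -2.05, SE 0.06, edgeR adjusted p = 2.33e-12) and 1.57-fold in labelled dKO. Bbc3, the BH3-only protein Puma, was at 9.20 and 7.85 CPM in WT with DMSO, 3.11 and 2.97 CPM in WT with MI-503, 6.64 and 9.42 CPM in labelled dKO with DMSO, and 2.85 and 2.40 CPM in labelled dKO with MI-503. DMSO libraries of both genotypes overlapped and lay above all MI-503 libraries, and Bbc3 fell 2.80-fold in WT and 3.06-fold in labelled dKO (interaction -0.13, SE 0.23, edgeR adjusted p = 0.694). Its genotype difference in DMSO was -0.084 (edgeR adjusted p = 0.64), and -0.36 without the second labelled dKO DMSO library. Bax, the pore-forming effector that such BH3-only proteins activate, rose 1.28-fold in WT and 1.42-fold in labelled dKO (interaction 0.15, SE 0.10, edgeR adjusted p = 0.223). Its genotype difference in DMSO was -0.032 (edgeR adjusted p = 0.702), and it was 0.20 by library size alone (edgeR adjusted p = 0.0265). Apaf1, the scaffold of the apoptosome, was 2.79-fold lower in labelled dKO in DMSO, fell 1.66-fold with MI-503 in WT and rose 1.48-fold in labelled dKO. Pidd1, the scaffold that activates caspase-2, was at 3.96 and 4.03 CPM in WT with DMSO and 7.604 and 6.99 CPM with MI-503, and at 3.002 and 3.77 CPM in labelled dKO with DMSO and 7.57 and 7.81 CPM with MI-503. Its MI-503 libraries lay above all DMSO libraries, with a 1.83-fold rise in WT and a 2.27-fold rise in labelled dKO. The genotype difference of Pidd1 in DMSO was -0.24 (edgeR adjusted p = 0.119), and -0.41 without the second labelled dKO DMSO library.

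Among the remaining death genes, Trp53inp1, a stress protein that promotes p53 phosphorylation and autophagy, was at 807 and 902 CPM in WT with DMSO, 146 and 153 CPM in WT with MI-503, 247 and 222 CPM in labelled dKO with DMSO, and 151 and 160 CPM in labelled dKO with MI-503. It had the largest fall of any member with MI-503 in WT (5.71-fold, or -2.51 in log2, SE 0.07, edgeR adjusted p = 1.24e-12), and under MI-503 the genotypes overlapped (0.055, edgeR adjusted p = 0.500). Phlda3, which restrains Akt at the membrane, ran against most members. It was at 159 and 152 CPM in WT with DMSO and 93.9 and 92.3 CPM with MI-503, and at 303 and 332 CPM in labelled dKO with DMSO and 219 and 196 CPM with MI-503. It was higher in labelled dKO under both treatments, 2.04-fold with DMSO (edgeR adjusted p = 3.52e-09) and 2.23-fold with MI-503, and fell with MI-503 in both genotypes, 1.67-fold and 1.53-fold. Aen, an apoptosis-linked nuclease, fell 1.25-fold in WT given MI-503 (-0.32 in log2, lost by library size alone at -0.14, edgeR adjusted p = 0.0516) and rose 1.35-fold in labelled dKO. Dram1, a lysosomal membrane protein of autophagy, was lower in labelled dKO under both treatments (1.56-fold and 1.26-fold). Ei24, a membrane protein of the endoplasmic reticulum, did not pass with MI-503 in WT (-0.087, edgeR adjusted p = 0.231) and rose 1.26-fold in labelled dKO. Perp, a desmosome protein of epithelia as well as a p53 target, stayed within 600 and 819 CPM in all 8 libraries. Its 1.12-fold fall in labelled dKO (-0.16, edgeR adjusted p = 0.0198) was lost without the first labelled dKO DMSO library (-0.11, edgeR adjusted p = 0.121) and without the first labelled dKO MI-503 library (-0.13, edgeR adjusted p = 0.129).

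The 5 DNA repair members split by genotype and treatment. Rrm2b, the p53-inducible ribonucleotide reductase subunit, was at 55.8 and 58.5 CPM in WT with DMSO, 28.9 and 30.4 CPM in WT with MI-503, 42.6 and 40.6 CPM in labelled dKO with DMSO, and 25.8 and 24.997 CPM in labelled dKO with MI-503. It fell in both genotypes, 1.93-fold in WT and 1.64-fold in labelled dKO. Xpc, which finds DNA lesions for nucleotide excision repair, rose in both: it was at 24.2 and 22.6 CPM in WT with DMSO, 40.4 and 38.6 CPM in WT with MI-503, 33.5 and 34.6 CPM in labelled dKO with DMSO, and 45.1 and 43.0 CPM in labelled dKO with MI-503. WT DMSO libraries were the lowest and labelled dKO MI-503 libraries the highest for Xpc, with rises of 1.69-fold and 1.29-fold (interaction -0.38, SE 0.09, edgeR adjusted p = 0.00262). Ddb2, which works with Xpc in damage recognition, rose 1.48-fold in WT and 1.79-fold in labelled dKO, and it was 1.40-fold lower in labelled dKO with DMSO (log2 fold change -0.49, and -0.26 by library size alone). Ercc5, the XPG endonuclease that cuts next to the lesion, did not pass after MI-503 in WT (log2 fold change -0.099, edgeR adjusted p = 0.138) and rose 1.54-fold in labelled dKO. Polk, a translesion DNA polymerase, fell 1.89-fold in WT and rose 1.46-fold in labelled dKO (interaction 1.47, SE 0.09, edgeR adjusted p = 3.83e-08), from a level 2.46-fold below WT in DMSO.

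In the stress and metabolism group were the member furthest below WT in untreated labelled dKO, Gdf15, and the member furthest above it, Fdxr. Gdf15, a secreted stress cytokine, had 189 and 163 counts in WT with DMSO, 222 and 173 in WT with MI-503, 5 and 7 in labelled dKO with DMSO, and 37 and 21 in labelled dKO with MI-503. The labelled dKO libraries lay below every WT library. In CPM these are, in the same order, 3.08, 2.70, 3.25, 2.89, 0.0758, 0.0981, 0.549 and 0.340, and the fitted fold change of 32.3 in DMSO (log2 fold change -5.02, SE 0.30, edgeR adjusted p = 4.49e-09) rests on those 5 and 7 counts. Gdf15 rose with MI-503 in labelled dKO (2.33, SE 0.41, edgeR adjusted p = 2.61e-04) and had a log2 fold change of 0.090 in WT (edgeR adjusted p = 0.664). Fdxr, a mitochondrial ferredoxin reductase, was at 5.13 and 4.00 CPM in WT with DMSO, 9.83 and 8.11 CPM in WT with MI-503, 13.3 and 14.9 CPM in labelled dKO with DMSO, and 16.1 and 14.2 CPM in labelled dKO with MI-503. WT DMSO libraries were the lowest, and Fdxr was 3.09-fold higher in labelled dKO in DMSO (log2 fold change 1.63, SE 0.13, edgeR adjusted p = 8.25e-08). Sesn1, a sestrin that restrains mTORC1, was at 9.70 and 10.8 CPM in WT with DMSO and 17.1 and 18.6 CPM with MI-503, and at 13.0 and 12.0 CPM in labelled dKO with DMSO and 19.3 and 20.2 CPM with MI-503. MI-503 libraries were above all DMSO libraries, with rises of 1.74-fold in WT and 1.58-fold in labelled dKO. The genotype difference of Sesn1 in DMSO (log2 fold change 0.29, edgeR adjusted p = 0.00954) was lost without the first WT DMSO library (0.21, edgeR adjusted p = 0.0913) and without the first labelled dKO DMSO library (0.23, edgeR adjusted p = 0.0694), and was 0.52 by library size alone (edgeR adjusted p = 1.18e-04).

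Epha2, an ephrin receptor kinase, was higher in labelled dKO than in WT under both treatments (1.43-fold and 1.92-fold) and fell with MI-503 in both genotypes (1.71-fold in WT and 1.27-fold in labelled dKO). Its fall in labelled dKO was smaller without the second labelled dKO DMSO library (log2 fold change -0.21 in place of -0.34). Rps27l, a ribosomal protein paralog induced by p53, was 1.62-fold lower in labelled dKO in DMSO. Its MI-503 differences of -0.18 in WT and 0.20 in labelled dKO (log2) were each lost when 1 library was left out: -0.14 in WT without the first MI-503 library (edgeR adjusted p = 0.101), and in labelled dKO 0.15 without the second DMSO library (edgeR adjusted p = 0.0537) and 0.16 without the second MI-503 library (edgeR adjusted p = 0.0598). Reads of Rps27l could also be shared with its close paralog Rps27, which would make its level uncertain, and this was not tested. Ddb2, Dram1, Plk3 and Apaf1 overlap the protein-coding genes Acp2, Washc3, Tctex1d4 and Ikbip by 2554, 1339, 84 and 7 bases in RefSeq, and no source used here says whether reads were counted by strand.

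The MI-503 responses in WT and in labelled dKO share no library, so their calls can be set against each other. In 13 of 35 members (37.1%) MI-503 lowered the gene in WT and raised it in labelled dKO, against 2.90% of all genes tested: Aen, Apaf1, Btg2, Ccng1, Cdkn1a, Eda2r, Fas, Mdm2, Polk, Rps27l, Tnfrsf10b, Tob1 and Zmat3. The opposite pattern, up in WT and down in labelled dKO, held for 0 members and 2.16% of all genes. In 9 members (25.7%, against 20.4% of all genes) MI-503 lowered the gene in both genotypes: Bbc3, Epha2, Perp, Phlda3, Plk2, Plk3, Pmaip1, Rrm2b and Trp53inp1. In 6 members (17.1%, against 21.1%) it raised the gene in both: Bax, Ddb2, Gtse1, Pidd1, Sesn1 and Xpc. The 7 others passed in 1 genotype only: Dram1, Ppm1d and Trp53 fell in WT (3 members, 8.57%, against 10.5%), Fdxr rose in WT (1 member, 2.86%, against 12.0%), and Ei24, Ercc5 and Gdf15 rose in labelled dKO (3 members, 8.57%, against 5.08%). No member fell in labelled dKO alone (3.97% of all genes) or passed in neither genotype (22.0%). Passing in 1 genotype and not in the other is no test of a difference, which the interaction gives: 25 members were shifted upward by it in labelled dKO relative to WT and 3 downward (Fdxr, Plk3 and Xpc), against 24.8% and 22.0% of all genes, and 7 did not pass. The 28 that passed compare with 46.8% of all genes, and 13 of them were past 2-fold (37.1%, against 12.2% of all genes). The count of 13 ranged from 11 to 14 when each library was left out in turn. The rise in labelled dKO uses none of the WT DMSO libraries with the high chaperone share, while the fall in WT is measured from them.

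**Figure D3:**
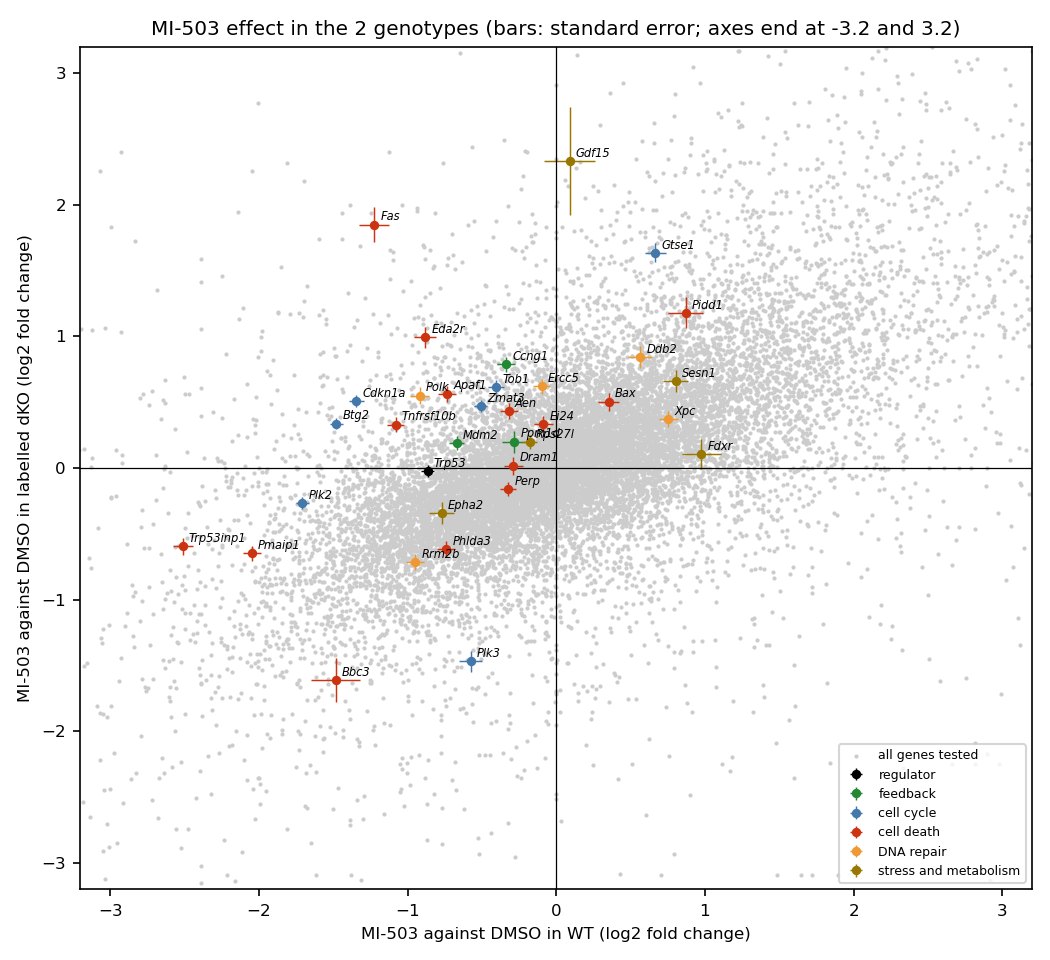
Log2 fold change with MI-503 in WT (x axis) and in labelled dKO (y axis) for the 35 members, coloured by role, with bars for the standard error, over all genes tested in grey. 13 members at the upper left passed the test in both directions, 9 in the lower left and 6 in the upper right passed in both genotypes.

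Under MI-503 fewer members than in DMSO lay 2-fold apart between the genotypes. In labelled dKO against WT, 12 members were higher, 14 lower and 9 did not pass, against 26.6% higher and 28.5% lower over all genes (26 passed, against 55.1%), with a median log2 fold change of 0.069 for the members and 0.0071 for all genes. Past 2-fold were 2 members (5.71%), Gdf15 and Phlda3, against 17.2% of all genes. Gdf15 was 6.83-fold lower in labelled dKO, and Eda2r, Plk3, Btg2 and Fas were 1.76-fold, 1.78-fold, 1.57-fold and 1.52-fold lower. Epha2, Phlda3 and Fdxr were 1.92-fold, 2.23-fold and 1.69-fold higher. The number of lower members fell to 9 without the second WT MI-503 library, and calls for Apaf1, Ccng1, Ddb2, Polk, Ppm1d, Rrm2b and Xpc were lost when 1 library was left out, of which Ppm1d had the largest difference, 1.19-fold.

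Members with a half-site in a promoter window did not all move one way. Of the 12, 6 fell with MI-503 in WT and rose in labelled dKO, and 10 were lower in labelled dKO in DMSO. Of the 15 members whose windows held none, 5 and 9 did so, and of the 8 members without a window in the table, 2 and 6. Over all genes the shares were 2.90% and 35.8%. Both counts use the DMSO libraries of both genotypes. Bax, whose half-site is shown above, rose with MI-503 in both genotypes, while Polk, Mdm2 and Ccng1 fell in WT and rose in labelled dKO and Trp53 itself passed in WT alone.

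Other genes of the pathway were taken from lists made for this work. Of 24 further p53 targets, 22 were tested, and in labelled dKO with DMSO 16 were lower, 5 higher and 1 did not pass (72.7% lower and 22.7% higher, against 35.8% and 29.6% of all genes). With MI-503 in labelled dKO 16 rose and 3 fell (72.7% and 13.6%, against 29.1% and 26.5%). This comparison and the one before it both use the labelled dKO DMSO libraries, with opposite sign. In WT 11 rose and 7 fell (50.0% and 31.8%, against 35.2% and 33.7%), a share of falls near that of all genes. Of the 22, 3 fell with MI-503 in WT and rose in labelled dKO, against 2.90% of all genes. Another 11 rose in both and 2 fell in both, against 21.1% and 20.4% of all genes. Slc19a2, a thiamine transporter gene, was among the 3. It went from 143.8 and 153.8 CPM to 58.5 and 61.2 CPM with MI-503 in WT and from 55.9 and 53.03 CPM to 62.8 and 63.8 CPM in labelled dKO. Igfbp3 was among the 11 (log2 fold change 1.42 in WT and 0.85 in labelled dKO). Tigar, a fructose bisphosphatase that slows glycolysis, fell in WT (log2 fold change -1.28) and was at 0.022 in labelled dKO (interaction 1.30, edgeR adjusted p = 1.42e-08). Gadd45a, a growth arrest gene, was among the 2 that fell in both. It went from 234.4 and 244.5 CPM to 27.6 and 27.0 CPM in WT. In labelled dKO it went from 131.0 and 142.7 CPM to 22.3 and 21.2 CPM. The other of these 2 is also on the list for the stress factors ATF4 and CHOP given below. Trp53i11 was lower in labelled dKO in DMSO (log2 fold change -5.49, edgeR adjusted p = 5.65e-13), at 0.334 and 0.449 CPM against 18.3 and 17.1 CPM.

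Among 22 regulators of p53, 11 were lower and 6 higher in labelled dKO with DMSO, and MI-503 lowered 13 and raised 7 in WT and lowered 11 and raised 5 in labelled dKO. The shares that fell or were lower were 50.0%, 59.1% and 50.0%, against 35.8%, 33.7% and 26.5% of all genes, and those that rose or were higher, 27.3%, 31.8% and 22.7%, were close to the 29.6%, 35.2% and 29.1% of all genes. Trp63, the family member that marks basal epithelial cells and is also among the urothelial markers, was at 461.5 and 450.7 CPM in WT with DMSO and 236.2 and 233.9 CPM with MI-503, and at 1019 and 991.4 CPM in labelled dKO with DMSO and 565.8 and 565.1 CPM with MI-503. It was higher in labelled dKO (log2 fold change 1.14 with DMSO) and fell with MI-503 in both genotypes (-0.96 and -0.83), the reverse of Trp53 between the untreated genotypes. Sirt1, a deacetylase of p53, fell from 51.2 and 52.2 CPM to 12.3 and 11.4 CPM in WT and from 41.0 and 41.5 CPM to 17.1 and 18.2 CPM in labelled dKO.

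The DREAM complex represses a set of cell cycle genes downstream of p21. Of 20 such genes, 17 were higher and 0 lower in labelled dKO with DMSO, and 14 rose and 1 fell with MI-503 in WT (85.0% and 70.0% upward, against 29.6% and 35.2% of all genes). With MI-503 in labelled dKO all 20 rose, against 29.1% of all genes, as did Cdkn1a (median log2 fold change of the 20 genes 0.59). Cdc20, an activator of the anaphase-promoting complex, was at 40.2 and 37.9 CPM in WT with DMSO, 64.7 and 63.9 CPM in WT with MI-503, 62.5 and 65.4 CPM in labelled dKO with DMSO, and 150.4 and 146.7 CPM in labelled dKO with MI-503. Its level in labelled dKO with MI-503 was the highest of the 4 groups.

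Stress genes of neighbouring pathways were counted because Gdf15, Bbc3 and Tnfrsf10b are also targets of the stress factors ATF4 and CHOP. Of 18 ATF4 and CHOP genes, 17 fell and 1 rose with MI-503 in WT, and all 18 fell in labelled dKO (94.4% and 100%, against 33.7% and 26.5% of all genes). Atf3, a stress transcription factor, fell from 178.3 and 178.0 CPM to 4.12 and 5.08 CPM in WT and from 77.5 and 77.8 CPM to 4.41 and 4.34 CPM in labelled dKO. All 15 chaperone genes were lower in labelled dKO with DMSO (median log2 fold change -2.91) and fell with MI-503 in WT (-3.58), while in labelled dKO 8 fell and 4 rose with MI-503 (-0.19). Over all genes 35.8% were lower in the first of these comparisons and 33.7% fell in the second, and in the third 26.5% fell and 29.1% rose. The part of these changes in the levels of the p53 members was not tested.

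**Figure D4:**
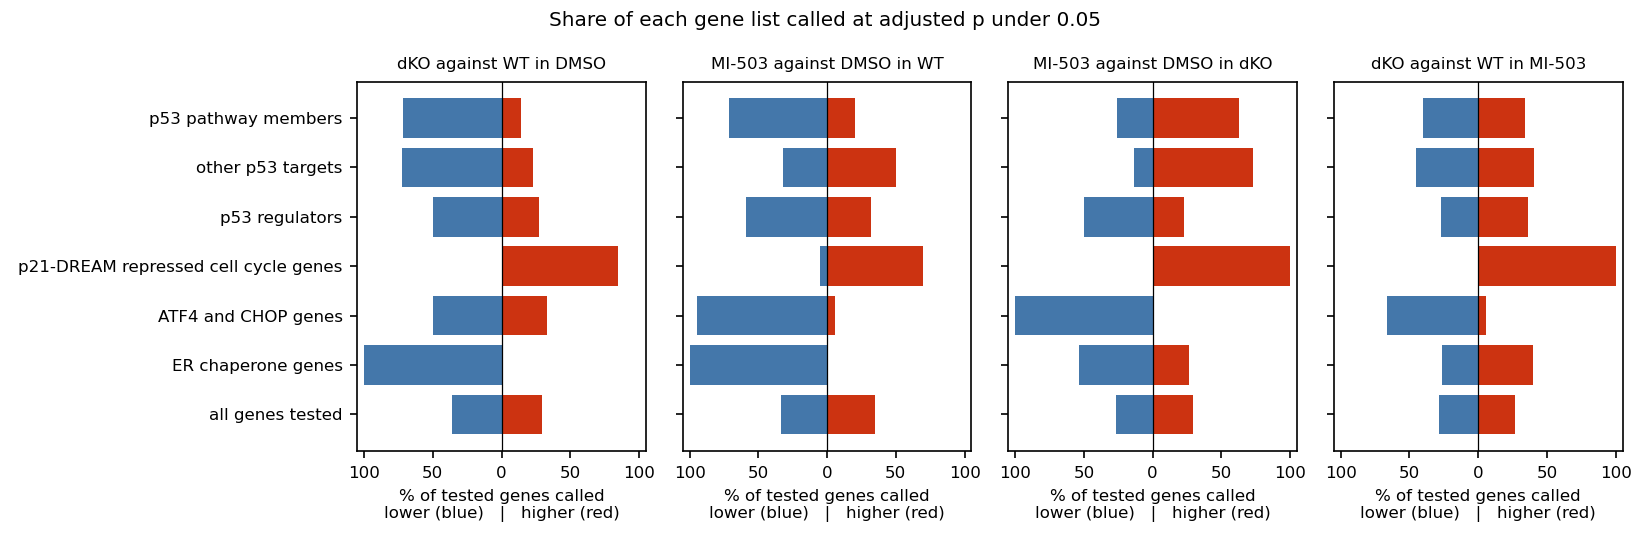
Share of the tested genes of each list that passed the test as lower (blue, to the left) or higher (red, to the right), in percent, for 4 comparisons. The p53 pathway members are mainly lower in the first 2 panels (71.4% each) and mainly higher in the third (62.9%), while the DREAM targets are higher in all 4.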

How the data were processed

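RNA-seq of polyA RNA was analysed for 8 of the 40 samples of the series; 32 samples of chromatin and nascent RNA assays were not analysed here. The authors deposited raw counts per Ensembl gene, whole numbers with no normalization, per the file headers and values. The submitters' processing notes name STAR and builds GRCm38 and mm10; no source used here gives the counting program or its strand setting. Symbols came from a reference table (53274 of 53465 identifiers matched), and 1 row without an identifier was left out.

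Genes were kept by filterByExpr (minimum count 10, minimum total 15), which left 16921 and removed 36544. edgeR 4.0.16 in R 4.3.3 fitted 1 mean per group over all 8 libraries with TMM factors and tested contrasts by its quasi-likelihood F test (prior count 0.125), with Benjamini-Hochberg adjustment over all genes tested and a threshold of 0.05. Each standard error is the size of the log2 fold change divided by the square root of its F. The interaction is the MI-503 response in labelled dKO minus that in WT. The 4 residual degrees of freedom come from 2 libraries a group. The fit moderates the spread of each gene toward a trend over all genes, which adds to these degrees of freedom. A permutation test of a single gene, 2 against 2, could not go below p = 0.33. The common biological coefficient of variation was 5.14%. Libraries of a group differed by more than sampling noise (chi-square over its degrees of freedom 5.19 to 13.3), so none looked like a copy of another; this does not show separate cultures. The scripts were tested on simulated data.

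The fit was repeated without each library, with the replicate number as a block, with only the groups compared, with DESeq2 1.42.0, with RLE size factors, with library size alone, and with no filter or a minimum count of 50. The members and the gene lists were chosen with earlier results of these data known. Values of every library are given for Trp53, Mdm2 and Cdkn1a and for the 3 members with the largest called change in each direction in the comparisons in DMSO, of MI-503 in each genotype and of the interaction, with a mean of at least 5 CPM. Tob1, Ccng1, Gdf15 and the printed promoters were added after their values were seen. From each other list at most the 2 called genes with the smallest adjusted p in a comparison are named. A planned comparison of protein sequences was not made.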

Additional observations from a re-analysis of the deposited data

Results flagged for a closer look

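The response to MI-503 differed between WT and labelled dKO organoids in 28 of 35 members, by the interaction term of the edgeR fit (adjusted p under 0.05), against 46.8% of all genes tested. Values are the log2 response in labelled dKO minus the log2 response in WT. Fas had the largest, 3.08, and Gdf15 followed with 2.24, which rests on 5 and 7 counts in the labelled dKO DMSO libraries. Trp53inp1 (1.92), Plk2 (1.44) and Pmaip1 (1.40) fell in both genotypes and fell less in labelled dKO. Eda2r (1.88), Cdkn1a (1.86), Btg2 (1.82), Polk (1.47), Tnfrsf10b (1.41), Apaf1 (1.30), Ccng1 (1.12), Tob1 (1.02), Zmat3 (0.98), Mdm2 (0.86), Aen (0.75) and Rps27l (0.37) fell in WT and rose in labelled dKO, as Fas did. Gtse1 (0.97) rose more in labelled dKO. Trp53 (0.84), Ppm1d (0.48) and Dram1 (0.31) fell in WT and did not pass in labelled dKO, and Ercc5 (0.72) and Ei24 (0.42) rose in labelled dKO and did not pass in WT. Epha2 (0.43) and Rrm2b (0.24) fell less in labelled dKO, but the Rrm2b value did not hold: it failed the test without 5 of the 8 libraries and under all 6 other settings tried, among them the replicate block (0.24, edgeR adjusted p = 0.0551), DESeq2 (0.21, adjusted p = 0.102) and library size alone (0.078, edgeR adjusted p = 0.472). The Dram1 value failed it without 4 of the 8 libraries and under 3 of the 6 other settings. Below 0 were Xpc (-0.38), which rose less in labelled dKO, Fdxr (-0.87), which rose in WT, and Plk3 (-0.89), which fell more in labelled dKO.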

How the results depend on the processing

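Counts of members past the threshold stayed within 1.5 times of the reported ones except in 2 cases. With library size alone, 8 members rather than 5 were higher in labelled dKO in DMSO, and without the second WT MI-503 library 9 rather than 14 were lower in labelled dKO under MI-503; the cause was not tested. Library size alone moved the median of all genes by 0.23 in the comparison in DMSO, by 0.17 for MI-503 in WT and by -0.16 in the interaction. Bax reversed under it in DMSO (0.20 in place of -0.032, which did not pass). Plk3 (0.29, edgeR adjusted p = 0.0055) and Perp (0.28, edgeR adjusted p = 2.6e-04) passed as higher in DMSO under it and did not pass in the reported fit. Perp also passed in DMSO with no filter and with the stricter one (0.14 under both, edgeR adjusted p = 0.0046 and 0.028). Library size alone also ended the calls with MI-503 in WT of Aen, Dram1 (-0.11, edgeR adjusted p = 0.144), Ppm1d and Rps27l (-0.0033). It ended the interactions of Dram1 (0.15), Epha2 (0.27) and Rrm2b, and left those of Ei24 and Rps27l at 0.26 and 0.21. With no filter and with the stricter one, the WT call of Rps27l (-0.10 under both, edgeR adjusted p = 0.123 and 0.0696) and the interactions of Dram1 (0.21 under both, edgeR adjusted p = 0.152 and 0.0655) and Rrm2b (0.14 under both, edgeR adjusted p = 0.406 and 0.153) were lost too.

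When each library was left out, higher and lower members ranged from 4 to 5 and 25 to 27 in DMSO, 7 throughout and 23 to 26 for MI-503 in WT, 20 to 23 and 8 to 9 for MI-503 in labelled dKO, 10 to 13 and 9 to 14 under MI-503, and 23 to 27 and 3 throughout for the interaction. A call was kept under every alternative by 29 of 30 members in DMSO, 28 of 32 for MI-503 in WT, 28 of 31 in labelled dKO, 19 of 26 under MI-503 and 25 of 28 for the interaction. The 13 members lowered in WT and raised in labelled dKO, a count chosen after the data were seen, were 11 to 14, and the 19 lowest in labelled dKO with DMSO were 18 by library size alone.

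Same-numbered libraries had correlations of their deviations from -0.443 to 0.257. WT DMSO correlated with WT MI-503 at 0.2 and with labelled dKO MI-503 at 0.257, and those MI-503 groups with each other at 0.241. Labelled dKO DMSO was negative with WT DMSO (-0.299), WT MI-503 (-0.299) and labelled dKO MI-503 (-0.443). The numbers as given therefore do not pair all groups in the same way. Whether libraries shared a batch under another numbering was not tested. With the replicate number as a block, 25 members were lower in DMSO, 25 fell in WT, 22 rose in labelled dKO, 10 were higher and 13 lower under MI-503, and 24 passed upward in the interaction. With 2 libraries a group each gene has 4 residual degrees of freedom, and its spread is moderated by that of other genes. The small p-values rest in part on that borrowed spread. Gdf15 is limited by its counts.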
